A study of Homo sapiens with 9 samples.

Results

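Ribosome biogenesis genes encode the machinery that transcribes ribosomal RNA in the nucleolus and turns it into ribosomal subunits. The set described here holds 37 of the 26929 gene rows of the deposited table, chosen by symbol as nucleolar factors and RNA polymerase I genes. All 37 had a row and a mean of at least 5 normalised counts, so all entered the tests. They fall by role into 4 genes of RNA polymerase I transcription, 8 of small nucleolar ribonucleoproteins (snoRNPs) and the nucleolar scaffold, 9 of the small subunit pathway, 12 of large subunit assembly and 4 growth genes often listed with them.

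The cells were MV4-11, an established human acute myeloid leukaemia line, kept for 24 h with JPX-0750, with JPX-0700 or with the vehicle DMSO. The series title presents both compounds as dual degraders of STAT3 and STAT5, transcription factors downstream of cytokine receptors and of the FLT3 kinase. The labels give no dose, so a difference between the compounds is a difference between these libraries and not between matched doses. Each group had 3 libraries of a 3′ end method that yields about 1 fragment per polyadenylated transcript, and nothing in the labels says whether they came from separate cultures, so p-values measure only the spread between these samples.

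Ribosome production starts when RNA polymerase I copies the ribosomal DNA repeats into a long precursor RNA. snoRNPs modify that RNA and a large complex called the small subunit processome folds and cleaves it, after which the pre-40S and pre-60S particles mature separately and leave the nucleus. Rapidly dividing leukaemia cells make many ribosomes, and the transcription factor MYC is known to bind and activate many of these genes through a DNA element called the E-box.

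The E-box CACGTG was therefore searched in RefSeq promoter windows (GRCh38.p14, 250 bases before to 50 bases after each gene's start), which exist for 31 of the 37 members. The motif reads the same on both strands. It stood in the windows of 16 of these 31 members, or 51.6%, against 12.8% of the 8942 tested genes with a window. In all 16 a copy lay between 50 bases before the start and the window's end, which held for 5.35% of the tested genes with a window, and that position limit was chosen after the matches were seen. The STAT motif TTCNNNGAA also reads the same on both strands. It was in the window of POLR1B alone among members, or 3.23%, against 8.72% of the tested genes. The POLR1B window had no CACGTG, so no member held both motifs. A match describes the letters in the window and does not show binding. Distances given below as after a start site count that site itself as the first base. The windows below are those of the members that hold either motif and whose value in every library is given in this text, with the motif in capitals and the gene's own strand read 5′ to 3′.
FBL, chr19:39846356-39846385, minus strand, motif starting 7 bases after the start site: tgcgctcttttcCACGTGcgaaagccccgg
WDR43, chr2:28894658-28894687, plus strand, motif starting 4 bases after: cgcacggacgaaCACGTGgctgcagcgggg
IMP4, chr2:130342900-130342929, plus strand, motif starting 16 bases after: ttctcccggaccCACGTGgaagcggcactc
IMP4, second copy in the same window, chr2:130342682-130342711, plus strand, motif starting 203 bases before: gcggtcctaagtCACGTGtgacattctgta
DDX21, chr10:68956604-68956633, plus strand, motif starting 31 bases before: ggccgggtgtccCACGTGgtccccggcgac
NME1, chr17:51153581-51153608, plus strand, motif starting 35 bases after: agtgctgcgaacCACGTGggtcccgggc
POLR1B, chr2:112542012-112542040, plus strand, STAT motif starting 14 bases before: catccgctttTTCGTTGAAgcaacgactt

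MYC itself was weakly counted. It had 71.9, 59.1 and 173 normalised counts with JPX-0750, 78.3, 37.3 and 8.34 with JPX-0700, and 127, 198 and 89.4 with DMSO. All 3 JPX-0700 libraries lay below the DMSO libraries, which held for 10.3% of genes tested, and the JPX-0750 libraries overlapped DMSO. The log2 fold change was -0.53 ± 0.90 (SE, n = 3 per group, limma adjusted p = 0.835) with JPX-0750 and -2.11 ± 0.90 (limma adjusted p = 0.201) with JPX-0700, so neither passed the test.

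Several properties of the libraries differed between groups and bear on every value that follows. Treated libraries held 726043 to 1941860 reads on genes and DMSO libraries 2701317 to 6305586, so that 1 read was worth 0.383 to 4.61 normalised counts. Structured small RNAs (small nuclear, nucleolar and related RNAs) took 11.1%, 11.1% and 13.5% of reads with JPX-0750, 8.70%, 8.15% and 10.1% with JPX-0700, and 0.0847%, 0.0391% and 0.235% with DMSO. One library of each group, JPX-0750 replicate 3, JPX-0700 replicate 3 and DMSO replicate 1, detected fewer genes (10407, 10027 and 9816) than its partners. Of 12 myeloid markers 10 had a read with JPX-0750, 9 with JPX-0700 and 10 with DMSO, FLT3, CD33, SPI1 and LYZ among them, while CD14 had none in any library. Their summed normalised count ran from 2509 to 5718 with JPX-0750, from 2307 to 6689 with JPX-0700 and from 6401 to 9896 with DMSO. LYZ, the lysozyme gene, made up a large part of the DMSO sums. It had 801, 1128 and 2742 with JPX-0750, 1793, 1152 and 2659 with JPX-0700, and 4575, 7377 and 4055 with DMSO. LYZ fell with JPX-0750 (log2 fold change -1.93 ± 0.49 SE, limma adjusted p = 0.0292). With JPX-0700 it was -1.55 ± 0.49 (limma adjusted p = 0.0737), which missed the threshold. The difference between the compounds was -0.38 ± 0.49 (limma adjusted p = 0.895). Of the 9 myeloid markers tested, 5 lay below 0 and 4 above with JPX-0750, and 7 below and 2 above with JPX-0700. Markers of T and NK, B and plasma, erythroid and megakaryocyte, and epithelial and fibroblast cells summed to at most 130 normalised counts per list in any library, and EPCAM and HBB were at 0. The part of depth, read composition and these markers in the results was not tested. In bulk RNA, fewer cells of a kind and less RNA per cell cannot be told apart.

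Summed over the 37 members, the treated and DMSO libraries overlapped. The sum was 22108, 26944 and 20243 normalised counts with JPX-0750, 21416, 30657 and 28309 with JPX-0700, and 30217, 21970 and 30383 with DMSO. NCL supplied 20.5% to 35.4% of the members' reads in each library. As a share of protein-coding reads, the members took 0.792%, 1.02% and 0.781% with JPX-0750, 0.786%, 1.13% and 0.667% with JPX-0700, and 1.27%, 0.923% and 1.43% with DMSO. DMSO replicate 2 was the lowest of its group by both measures and lay below some treated libraries by both.

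**Figure D1:**
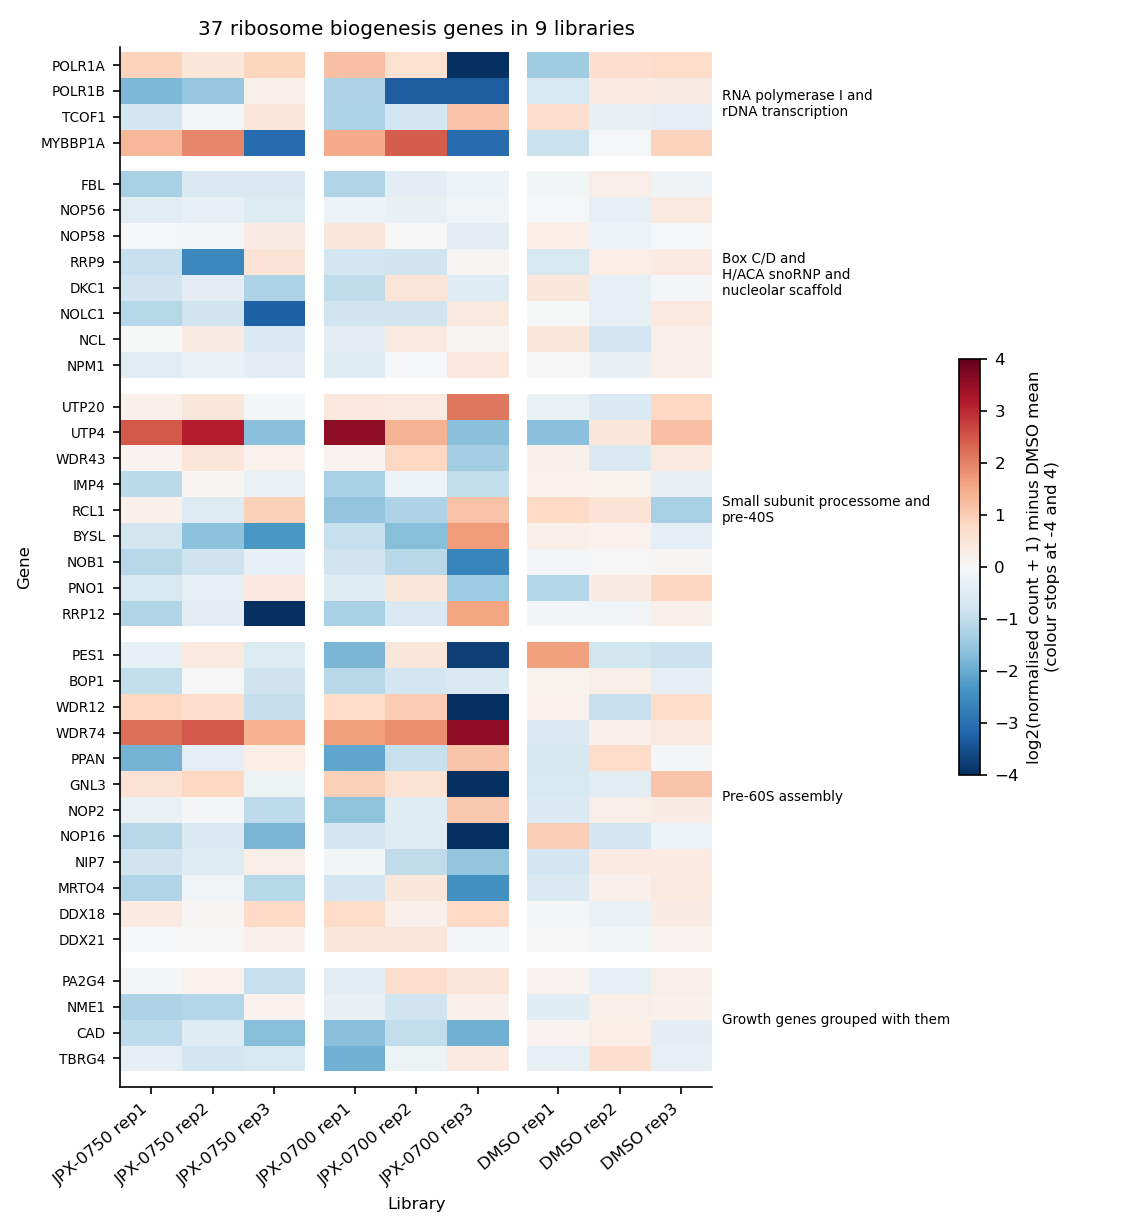
Each row is a gene, grouped by role, and each column a library, JPX-0750 at the left, JPX-0700 in the middle and DMSO at the right. Colour gives log2(normalised count + 1) minus the mean of the DMSO libraries, blue below and red above. WDR74 is red in all 6 treated libraries, FBL, NOB1 and CAD are blue in all 6, and the darkest blue cells include POLR1A, WDR12, GNL3 and NOP16 in JPX-0700 replicate 3.

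JPX-0750 was compared with DMSO to ask how the set changed with this compound. Of the 37 members, 25 had a log2 fold change below 0, or 67.6%, against 42.5% of the 12301 genes tested, and the members' median was -0.38 against 0.26 over all genes tested. A gene that reached the minimum of 5 only through treated libraries had a higher mean there by the filter itself, and 10175 of the genes tested but 36 of the 37 members reached it on the DMSO mean alone. Among those, 69.4% of members and 50.6% of genes lay below 0, with medians of -0.40 and -0.016. A limit on the DMSO mean leans the other way, since it drops genes low with DMSO alone and keeps genes low with treatment alone. In limma 0 members rose and 0 fell at an adjusted p under 0.05, where 3.9% of genes tested rose and 0.0732% fell. At an unadjusted p under 0.05 there were 2 members, NOLC1 below and WDR74 above DMSO, against 14.2% of genes tested, and with voom weights on recovered reads 1 member fell (NOLC1, limma adjusted p = 0.0488). All 3 JPX-0750 libraries lay below all 3 DMSO libraries for 9 members (FBL, NOP56, DKC1, NOLC1, BYSL, NOB1, RRP12, CAD and TBRG4), or 24.3%, against 9.18% of genes tested, and among those that reached the minimum on the DMSO mean the shares were 25.0% and 11.1%. Among those with a mean of at least 50 normalised counts the shares were 25.7% of 35 members and 11.8% of 7241 genes tested. The JPX-0750 libraries lay above for 1 member, WDR74, against 19.7% of genes tested. Without the 3 libraries with the fewest genes WDR74 rose and NME1 fell, where 17.8% of genes tested rose and 3.05% fell. That fit had 2 libraries per group and 3 residual degrees of freedom, against 6 in the main fit.

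JPX-0700 was compared with the same DMSO libraries. Here 28 members had a log2 fold change below 0, or 75.7%, against 46.5% of genes tested, and the median was -0.39 against 0.14. Among those that reached the minimum on the DMSO mean, 77.8% of members and 55.4% of genes lay below 0, with medians of -0.44 and -0.21. In limma 1 member rose, WDR74, and 0 fell, where 5.28% of genes tested rose and 0.496% fell. At an unadjusted p under 0.05 there were 4 members, WDR74 above and POLR1B, NOB1 and CAD below DMSO, against 19.6% of genes tested, and with voom weights again 1 rose and 0 fell. All 3 JPX-0700 libraries lay below DMSO for 5 members (POLR1B, FBL, NOB1, BOP1 and CAD), or 13.5%. With the deposited scaling this is close to the 10.3% of genes tested, and other scalings are given below. The JPX-0700 libraries lay above for WDR74, against 16.5% of genes tested. FBL, NOB1 and CAD were below and WDR74 above with both compounds, and the share of genes tested that did so was not counted. Without the 3 libraries with the fewest genes WDR74 rose and POLR1B fell, where 17.5% of genes tested rose and 3.6% fell.

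**Figure D2:**
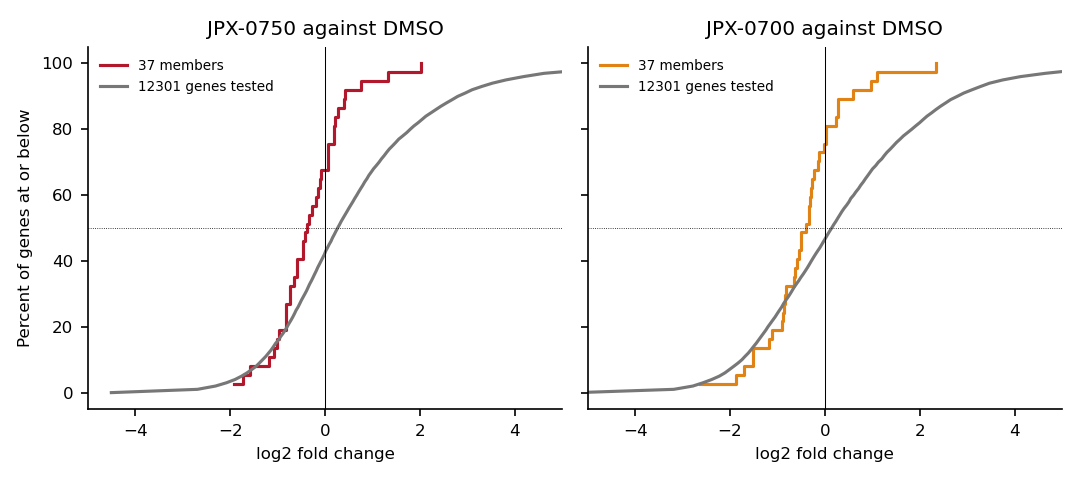
Stepped lines give the percent of the 37 members, and grey lines the percent of the 12301 genes tested, with a log2 fold change at or below the value on the x axis, JPX-0750 against DMSO at the left and JPX-0700 against DMSO at the right. The members' curve crosses 50% at -0.38 and -0.39, left of the grey curve at 0.26 and 0.14, and its upper end stops at 2.02 and 2.35.

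The distance between the medians of the members and of all genes tested was -0.64 for JPX-0750 and -0.54 for JPX-0700. Giving all libraries equal totals shifted the median of all genes tested by -0.52 for JPX-0750 and by -0.66 for JPX-0700, and the distances were then -0.66 and -0.61. With genes of a mean of at least 50 alone they were -0.52 for both compounds. Leaving out the 3 libraries with the fewest genes gave -0.85 and -0.83. Among genes that reached the minimum on the DMSO mean, the medians lay closer together, and closest for JPX-0700. That limit drops genes low with DMSO alone, so it lowers the median of genes by itself, and it removed few members. In this subset members and genes had -0.40 and -0.016 with JPX-0750, and -0.44 and -0.21 with JPX-0700. With the same 3 libraries dropped, members and genes of this subset had -0.40 and 0.20 for JPX-0750, and -0.52 and 0.14 for JPX-0700. Every such value describes the medians, without a test, and both comparisons share the DMSO libraries. The count of members below DMSO in all libraries depended more on scaling. With equal totals it was 14 for JPX-0750 (37.8% of members) and 13 for JPX-0700 (35.1%), where 19.3% and 21.0% of genes tested lay below. With equal protein-coding totals it was 11 for each compound (29.7%), where 13.2% and 16.1% of genes tested lay below.

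**Figure D3:**
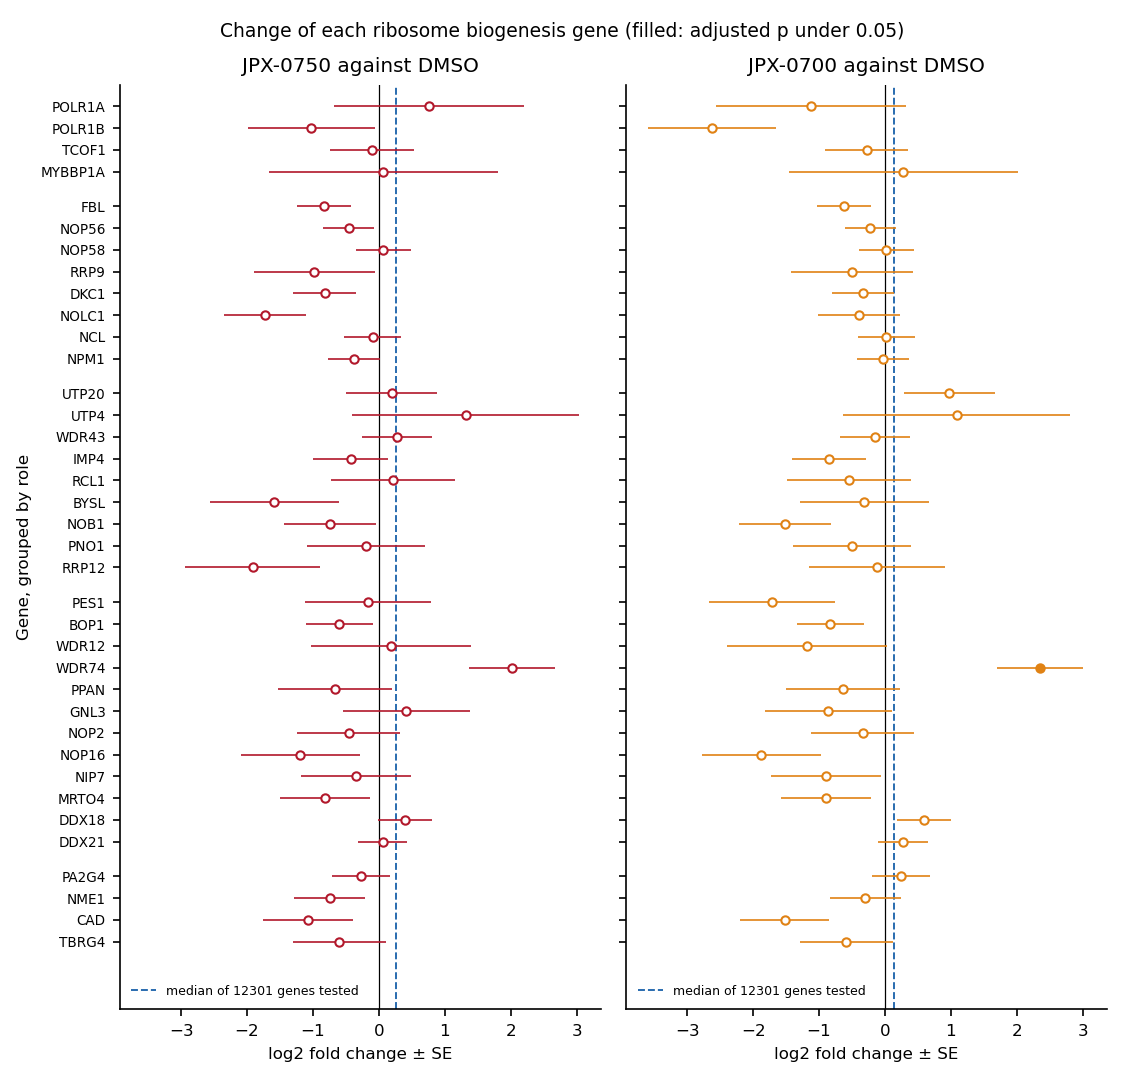
Points give the log2 fold change of each member over DMSO with its SE, JPX-0750 at the left and JPX-0700 at the right, in order of role. A filled point passed the limma test, which WDR74 alone did, with JPX-0700. Dashed lines mark the median of all genes tested, 0.26 and 0.14, and 25 and 28 of the 37 points lie left of 0.

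Among RNA polymerase I genes, POLR1B, the second largest subunit of the enzyme, stood lowest with JPX-0700. It had 34.2, 40.9 and 143 normalised counts with JPX-0750, 50.7, 11.2 and 11.1 with JPX-0700, and 74.5, 153 and 152 with DMSO. All JPX-0700 libraries lay below DMSO, on 18 reads in all, whereas JPX-0750 replicate 3 reached the DMSO range. The log2 fold changes were -1.02 ± 0.97 (SE, limma adjusted p = 0.673) with JPX-0750 and -2.62 ± 0.97 (0.134) with JPX-0700. Without the 3 libraries with the fewest genes the JPX-0700 value was -2.62 with a limma adjusted p of 0.0412. In that fit 3.6% of genes tested fell.

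POLR1A, the largest subunit, had 68.5, 50.02 and 66.6 normalised counts with JPX-0750, 83.0, 55.9 and 0 with JPX-0700, and 12.6, 57.5 and 60.8 with DMSO. The groups overlapped, and the 0 of JPX-0700 replicate 3 beside 83.0 and 55.9 set a log2 fold change of -1.12 ± 1.44 (SE), which was 0.92 without that library. TCOF1, or treacle, which joins the polymerase to ribosomal RNA modification, had 185, 291 and 448 with JPX-0750, 129, 186 and 695 with JPX-0700, and 497, 254 and 237 with DMSO. Its groups overlapped too, with log2 fold changes of -0.10 ± 0.64 and -0.28 ± 0.64 for JPX-0750 and JPX-0700. MYBBP1A, a nucleolar MYB-binding protein, rested on 13, 17 and 51 reads in the 3 groups and was at 0 in both treated replicates 3.

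The snoRNP and scaffold genes held 7 of 8 log2 fold changes below 0 with JPX-0750 (median -0.64, and -0.41 if the 3 libraries with the fewest genes are left out) and 6 of 8 with JPX-0700 (median -0.27), none past the test. FBL, fibrillarin, is the methyltransferase of box C/D snoRNPs. It had 1075, 1742 and 1779 normalised counts with JPX-0750, 1148, 1960 and 2251 with JPX-0700, and 2477, 3174 and 2368 with DMSO. All 6 treated libraries lay below all 3 DMSO libraries. The log2 fold changes were -0.83 ± 0.41 (SE, limma adjusted p = 0.377) with JPX-0750 and -0.63 ± 0.41 (0.410) with JPX-0700, and neither passed the test. With equal totals the JPX-0700 value was -1.36 with a limma adjusted p of 0.0485. Of its partners in the same particle, NOP56 had log2 fold changes of -0.46 ± 0.39 and -0.22 ± 0.39, and NOP58 of 0.07 ± 0.42 and 0.02 ± 0.42, for JPX-0750 and JPX-0700.

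NOLC1, or Nopp140, a scaffold that accompanies snoRNPs in the nucleolus, had 250, 318 and 56.6 normalised counts with JPX-0750, 318, 317 and 725 with JPX-0700, and 544, 425 and 717 with DMSO. JPX-0750 libraries all lay below DMSO, and JPX-0700 replicate 3 lay above all of them. The log2 fold change was -1.72 ± 0.62 (SE, limma adjusted p = 0.167) with JPX-0750, and -0.96 without JPX-0750 replicate 3, the lowest library. With JPX-0700 it was -0.39 ± 0.62. DKC1, the pseudouridine synthase of box H/ACA snoRNPs, had 661, 855 and 476 normalised counts with JPX-0750, all below the DMSO values of 1553, 893 and 1079, at -0.82 ± 0.47 (limma adjusted p = 0.449).

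NCL, nucleolin, and NPM1, nucleophosmin, are abundant proteins that organise the nucleolus. NCL had 7439, 9532 and 4943 normalised counts with JPX-0750, 5636, 9954 and 7900 with JPX-0700, and 10326, 4507 and 9138 with DMSO. Each group spanned nearly the same range, and the log2 fold changes were -0.09 ± 0.43 (95% interval -1.01 to 0.82) and 0.02 ± 0.43 (-0.89 to 0.93) for JPX-0750 and JPX-0700. NPM1 gave -0.38 ± 0.39 and -0.03 ± 0.39. The NCL intervals reach close to 1 log2 unit on either side, so a p that missed the threshold does not show that NCL was the same in all groups.

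In the small subunit pathway 5 of 9 members lay below 0 with JPX-0750 (median -0.20) and 7 of 9 with JPX-0700 (median -0.31), none past the test. Leaving out the 3 libraries with the fewest genes moved those medians to -0.43 and -0.70. NOB1, the endonuclease that makes the final cut of 18S ribosomal RNA, had 82.2, 100 and 142 normalised counts with JPX-0750, 101.4, 82.0 and 27.8 with JPX-0700, and 168, 180 and 184 with DMSO. All 6 treated libraries lay below the DMSO libraries, which were close to each other. The log2 fold changes were -0.75 ± 0.70 (SE, limma adjusted p = 0.669) with JPX-0750 and -1.51 ± 0.70 (0.244) with JPX-0700. RRP12, known from yeast as an export factor of both subunits, had 44.5, 77.3 and 5.00 with JPX-0750, 41.5, 67.1 and 308 with JPX-0700, and 97.0, 93.9 and 122 with DMSO. Replicates 1 and 2 of both compounds lay below DMSO, while the replicates 3 lay far apart, one at 5.00 and one at 308. Its log2 fold changes, -1.91 ± 1.03 and -0.12 ± 1.03, became -0.86 and -1.01 when the 3 libraries with the fewest genes were left out.

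WDR43 and IMP4, both of the small subunit processome, held the most reads of this role. WDR43 had 685, 919 and 723 normalised counts with JPX-0750, 691, 1129 and 242 with JPX-0700, and 729, 422 and 834 with DMSO. IMP4 had 130, 291 and 233 with JPX-0750, 111, 235 and 142 with JPX-0700, and 312, 308 and 225 with DMSO. Neither gene's treated libraries separated from DMSO, at log2 fold changes of 0.27 ± 0.53 and -0.15 ± 0.53 for WDR43 and -0.43 ± 0.56 and -0.85 ± 0.56 for IMP4. UTP4 averaged 3.30 normalised counts with DMSO and reached the minimum for testing through its treated libraries.

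WDR74, a WD-repeat protein of early pre-60S particles, was the 1 member to rise. It had 274, 332 and 160 normalised counts with JPX-0750, 189, 216 and 706 with JPX-0700, and 38.6, 69.0 and 78.1 with DMSO. All 6 treated libraries lay above all 3 DMSO libraries. With JPX-0700 it rose 5.10-fold (log2 fold change 2.35 ± 0.65 SE, limma adjusted p = 0.0409), and with JPX-0750 the log2 fold change was 2.02 ± 0.65 (0.109). JPX-0700 replicate 3 was by far the highest, and without it the JPX-0700 value was 1.75. With the 3 libraries of fewest genes left out, the log2 fold changes were 2.02 for JPX-0750 and 1.45 for JPX-0700 (limma adjusted p = 0.00808 and 0.0243). In that fit 17.8% and 17.5% of genes tested rose. The JPX-0700 call was lost in 6 of the 9 fits that left out 1 library (limma adjusted p = 0.0561 to 0.176), those without any DMSO library, without JPX-0700 replicate 3 or without JPX-0750 replicate 1 or 2.

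WDR74 overlaps a small nuclear RNA gene. In GENCODE v29 (GRCh38) the gene runs from 62832905 to 62841809 on the minus strand of chromosome 11, and one of its exon records, 62841569 to 62841809, contains all 191 bases of RNU2-2P, a U2 small nuclear RNA gene at 62841619 to 62841809 on the same strand. RNU2-2P has no row under that name and was not analysed here, and the sources used here do not state how reads in this overlap were counted. The structured small RNA share of reads, given above, was higher in every treated library than in every DMSO library, and its part in the WDR74 value was not tested.

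Of the 12 large subunit members, WDR74 included, 7 had log2 fold changes below 0 with JPX-0750 (median -0.25) and 9 with JPX-0700 (median -0.84). The JPX-0700 median rested on the 3 libraries with the fewest genes, since it was 0.013 when they were left out, and the JPX-0750 median was then -0.20. NOP16 had 120, 168 and 71.6 normalised counts with JPX-0750, 157, 186 and 11.1 with JPX-0700, and 509, 156 and 220 with DMSO. The groups overlapped, and its log2 fold change of -1.88 ± 0.90 (SE, limma adjusted p = 0.261) with JPX-0700 shrank to -0.12 without the 3 libraries with the fewest genes. PES1, BOP1 and WDR12 form the PeBoW complex of large subunit assembly, and their JPX-0700 log2 fold changes were -1.71 ± 0.96, -0.83 ± 0.51 and -1.18 ± 1.22. The same 3 genes gave 0.14, -0.86 and 0.97 without those libraries, so BOP1 alone of the 3 stayed near its value.

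The DEAD-box helicases DDX18 and DDX21 held the most reads of the large subunit role. DDX18 had 1164, 946 and 1596 normalised counts with JPX-0750, 1558, 1047 and 1603 with JPX-0700, and 871, 754 and 1159 with DMSO. DDX21, which also acts at RNA polymerase I and snoRNAs, had 1773, 1851 and 2097 with JPX-0750, 2512, 2508 and 1720 with JPX-0700, and 1833, 1703 and 1959 with DMSO. Treated and DMSO libraries overlapped for both. The log2 fold changes of DDX21 were 0.06 ± 0.37 (95% interval -0.73 to 0.84) and 0.28 ± 0.37 (-0.51 to 1.06) for JPX-0750 and JPX-0700, the smallest errors in the set, and those of DDX18 were 0.40 ± 0.41 and 0.59 ± 0.41. With equal totals DDX21 lay below DMSO in all 3 JPX-0750 libraries.

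Of the growth genes, CAD, the enzyme of the first steps of pyrimidine synthesis and a classical MYC target, had 92.4, 136 and 58.3 normalised counts with JPX-0750, 59.9, 96.9 and 50.02 with JPX-0700, and 207, 236 and 144 with DMSO. All 6 treated libraries lay below DMSO, at log2 fold changes of -1.08 ± 0.68 (SE, limma adjusted p = 0.497) with JPX-0750 and -1.52 ± 0.68 (0.227) with JPX-0700. NME1, a nucleoside diphosphate kinase, had 181, 191 and 490 with JPX-0750, 350, 246 and 503 with JPX-0700, and 311, 525 and 495 with DMSO. Its JPX-0750 log2 fold change was -0.75 ± 0.54 (limma adjusted p = 0.559), and it was -1.45 (0.0217) once the 3 libraries with the fewest genes were left out. In that fit 3.05% of genes tested fell. NME1 shares exons on its strand with the readthrough gene NME1-NME2. PA2G4, a nucleolar growth regulator, had 2455, 2910 and 1354 with JPX-0750, 1862, 4144 and 3643 with JPX-0700, and 2780, 1989 and 3080 with DMSO, which overlap, at -0.27 ± 0.44 and 0.24 ± 0.44.

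**Figure D4:**
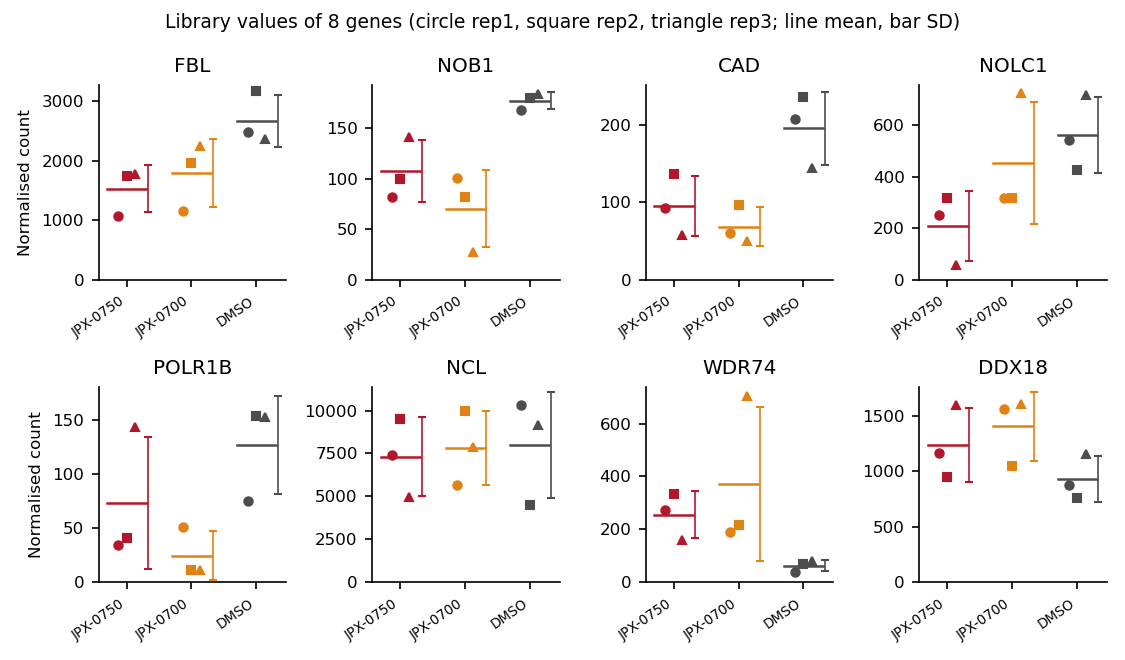
Panels give the normalised count of 8 members in each library, JPX-0750, JPX-0700 and DMSO from left to right, with symbols for the replicate, a line for the mean and a bar for the SD (n = 3). FBL, NOB1 and CAD lie below DMSO in all 6 treated libraries and WDR74 above it, while NCL and DDX18 overlap between groups.

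JPX-0750 and JPX-0700 were then set against each other, gene by gene, for all 37 members. In limma 0 members were higher and 0 lower with JPX-0750, and 0.0% of genes tested were called in either direction, with 1 member (NOLC1) and 3.21% of genes tested at an unadjusted p under 0.05. With voom weights the count was also 0. The median difference was -0.01, with 19 of 37 below 0, or 51.4%, against 46.3% of genes tested. NOLC1 had the smallest p, at -1.33 ± 0.62 (SE, 95% interval -2.64 to -0.02, limma adjusted p = 0.848), and it was -0.17 without the replicates 3 and DMSO replicate 1. NOP56 was the 1 member whose JPX-0750 libraries (982, 1041 and 923) all lay below the JPX-0700 libraries (1157, 1092 and 1234), where 3.63% of genes tested did, and for 0 members they all lay above, where 4.72% of genes tested did.

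Intervals for the difference were wide, so the data do not show that the compounds act alike. For the well-counted FBL the difference was -0.20, with a 95% interval of -1.06 to 0.66. For NCL it was -0.11 (-1.03 to 0.80). For WDR74 it was -0.33 (-1.70 to 1.05), and for the sparsely counted POLR1B 1.60 (-0.44 to 3.64).

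Precision followed the reads. In the treated libraries together a member rested on 21 to 13973 reads. The 10 members with at least 1000 treated reads had a median SE of 0.41 on the log2 scale, and the 27 with fewer had 0.86. JPX-0700 libraries scattered most: the median SD over members was 1.02 with JPX-0700, 0.55 with JPX-0750 and 0.53 with DMSO. JPX-0700 replicate 3 was the lowest of its group for 16 members and the highest for 17, so it was the middle library for few. It held the 0 of POLR1A, 2.78 of WDR12 (beside 258 and 302) and 19.5 of GNL3 (beside 705 and 559).

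To see whether the rest of the pathway moved, 122 other genes were taken in 4 lists, of which 115 were tested. With JPX-0750 0 rose and 0 fell, where 3.9% of genes tested rose, and 8 were at an unadjusted p under 0.05, or 6.96% against 14.2%. With JPX-0700 3 rose and 0 fell, or 2.61% against the 5.28% of genes tested that rose, and 17 were at an unadjusted p under 0.05, or 14.8% against 19.6%. Calls were thus no more frequent in these lists than over all genes tested. The list medians were -0.22 with JPX-0750 and -0.20 with JPX-0700, beside 0.26 and 0.14 over all genes tested. Of the 115 genes 114 reached the minimum on the DMSO mean alone. The genes tested that did so had medians of -0.016 and -0.21, so the JPX-0700 list median was close to theirs. As stated above, that limit lowers the median of genes by itself. Leaving out the 3 libraries with the fewest genes brought the list medians to -0.0060 and 0.048. Beside them stood 0.47 and 0.39 over all genes tested, and 0.20 and 0.14 over those that reached the minimum on the DMSO mean. The 3 genes that rose were among 51 tested of large subunit assembly, a share of 5.88% that is close to the 5.28% over all genes and is no result about that role.

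NVL, an AAA ATPase of pre-60S maturation known to act on WDR74, had 298, 159 and 220 normalised counts with JPX-0750, 419, 287 and 650 with JPX-0700, and 94.3, 25.7 and 120 with DMSO. It rose 6.36-fold with JPX-0700 (log2 fold change 2.67 ± 0.65 SE, limma adjusted p = 0.0189) and gave 1.70 ± 0.65 (0.204) with JPX-0750. SPATA5, now named AFG2A, another AAA ATPase of the pre-60S particle, had 188, 173 and 140 with JPX-0750, 134, 242 and 245 with JPX-0700, and 10.8, 25.3 and 84.5 with DMSO. It rose with JPX-0700 (2.75 ± 0.78, limma adjusted p = 0.0447), but not without the 3 libraries with the fewest genes (1.93, 0.0626). NSA2, a pre-60S assembly factor, rose 3.16-fold with JPX-0700 (1.66 ± 0.44, limma adjusted p = 0.0316), with 1548, 1379 and 2921 normalised counts, against 541, 482 and 753 with DMSO, and it had 1551, 1260 and 815 with JPX-0750. Its exons overlap those of GFM2 and FAM169A in GENCODE v29. Every treated library lay above every DMSO library for these 3 genes, which were named because they were called. Over all genes tested the libraries lay above DMSO for 19.7% with JPX-0750 and 16.5% with JPX-0700. The calls of NVL, NSA2 and SPATA5 held in 6, 4 and 1 of the 9 fits that left out 1 library. MDN1, also an AAA ATPase of large subunit assembly, had the smallest p with JPX-0750 (1.65 ± 0.50, limma adjusted p = 0.0829), with 736, 682 and 431 against 226, 122 and 251 with DMSO.

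The other lists had no call. Of 11 tested snoRNP genes 10 were below 0 with JPX-0750 (median -1.01) and 9 with JPX-0700 (median -0.70, which became -1.10 on leaving out JPX-0750 and JPX-0700 replicates 3 and DMSO replicate 1), with SNU13, which binds the kink-turn of snoRNAs, at -1.10 ± 0.46 (limma adjusted p = 0.257) with JPX-0750 and NOP10, an H/ACA subunit, at -1.78 ± 0.74 (0.189) with JPX-0700. Of 43 tested small subunit genes 27 and 26 were below 0 (medians -0.22 and -0.51, but -0.066 and -0.020 once the 3 libraries with the fewest genes were left out), with NOL11 at -1.81 ± 0.70 (0.210) with JPX-0750 and DCAF13 at -2.17 ± 0.79 (0.129) with JPX-0700. Of 10 tested RNA polymerase I genes 3 and 5 were below 0 (medians 0.34 and 0.12, and 0.51 and 0.69 without those libraries). There TAF1D, a subunit of the selectivity factor that recruits the polymerase, had the smallest p for both compounds, at 1.23 ± 0.49 (0.231) and 1.46 ± 0.49 (0.0943), and its span holds 8 snoRNA genes.

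Box C/D and H/ACA snoRNAs, which guide the modification of ribosomal RNA, lie within several members. In GENCODE v29, 23 snoRNA genes with a row of their own lie within the spans of 8 members, NOP56, NOP58, DKC1, NCL, WDR43, PPAN, GNL3 and TBRG4. Of these, 17 reached the minimum for testing, but 16 of the 17, all except SNORD57, averaged under 5 normalised counts with DMSO. Those 16 entered only through treated libraries, whose mean was higher by the filter itself, so counts of calls among them carry no weight. The snoRNA rows summed to 3779, 4370 and 3127 normalised counts with JPX-0750, 5927, 4103 and 3885 with JPX-0700, and 39.5, 22.6 and 145 with DMSO. Their 8 host rows summed to 11335, 14029 and 8738 with JPX-0750, 10037, 15474 and 11374 with JPX-0700, and 15431, 8383 and 14709 with DMSO. The snoRNA sums separated completely and the host sums overlapped.

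SNORD57, within NOP56, held the most reads, with 2078 ± 754 (SD, n = 3) normalised counts with JPX-0750, 2856 ± 1492 with JPX-0700 and 59.8 ± 57.7 with DMSO. It rose with both compounds (log2 fold changes 5.51 ± 0.65 and 5.87 ± 0.65 SE, limma adjusted p = 1.98e-05 and 1.05e-05), while its host NOP56 gave -0.46 and -0.22. In GENCODE v29 SNORD57 and several others of these snoRNA genes overlap an exon of their host on the same strand. How reads in such overlaps were counted is not stated in the sources used here. The library method selects polyadenylated RNA and mature snoRNAs carry no poly(A) tail, and the sources used here do not state whether treated and DMSO libraries were prepared together. Structured small RNAs as a whole took a larger share of reads in every treated library than in every DMSO library, and their part in the host rows was not tested.

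**Figure D5:**
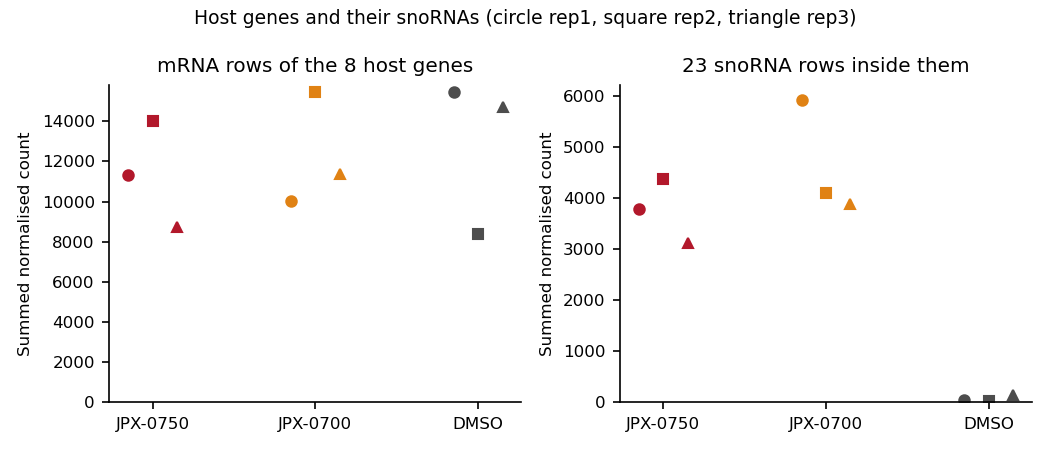
Points give the summed normalised count per library of the 8 host members at the left and of the 23 snoRNA rows inside them at the right, for JPX-0750, JPX-0700 and DMSO, with symbols for the replicate. Host sums overlap between 8383 and 15474, and the snoRNA sums are at least 3127 in treated and at most 145 in DMSO libraries.

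Some rows share sequence or position with other genes, and the sources used here do not state which strand was counted. PPAN shares exons on its strand with PPAN-P2RY11 and P2RY11. MYBBP1A, UTP4, IMP4, PES1, WDR12, GNL3, NOP16, NIP7 and MRTO4 overlap exons of a protein-coding gene on the other strand that has a row of its own, so reads of such pairs cannot be told apart without strand. NPM1 has 45 numbered pseudogenes in the annotation, none with a row in the table.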

How the data were processed

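RNA from MV4-11 cells was measured in 9 libraries, 3 per group, and groups were taken from the treatment label. Libraries were made with a QuantSeq 3′ kit per the labels' protocols, which mention no molecular identifiers, so that reads cannot be taken as independent molecules. Per the submitters' processing notes the build was GRCh38 and the tools included STAR 2.4.2a, featureCounts 2.0.3, FastQC 0.11.9, SAMtools 1.4 and DESeq2. The sources used here do not state the annotation, the strand or the handling of multiply mapped reads. The other unit, beside reads, is that of the table the authors deposited, namely normalised gene counts with a decimal comma for 26929 symbols. Within each library 100% of nonzero values were integer multiples of the lowest (tolerance 1e-06), and reads were recovered by dividing by it. Count models planned as alternatives were not run, because values with a decimal comma could not be checked as counts, although whole reads could be recovered and served for voom.

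log2(normalised count + 1) of the 12301 genes with a mean of at least 5 was fitted in limma 3.58.1 (R 4.3.3) with a mean per group over all 9 libraries, 6 residual degrees of freedom and a variance trend. Tests were two-sided, and Benjamini-Hochberg adjusted p under 0.05 over all 12301 genes is the threshold to which "rose" and "fell" refer. Adding 1 before the logarithm understates folds of weakly counted genes. The scripts were tested on simulated data. Alternatives were a count of 5 added, other filters, equal totals, equal protein-coding totals, TMM factors, a replicate block, leaving out libraries and, chosen after seeing the data, voom weights on recovered reads.

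The members, roles, pathway lists and marker lists were chosen with earlier results of these data known. Library values are given for members called in any comparison and, within each role, for the 2 with most reads and the 2 with the smallest p against DMSO. Other pathway genes are named where called, or else the 1 with the smallest p. NOP56, NOP58, DKC1, NPM1, MYBBP1A, UTP4, PES1, BOP1, WDR12, GNL3 and the snoRNAs named were added after their values were seen. Replicate numbers were checked for pairing. Same-numbered JPX-0750 and JPX-0700 libraries had r = 0.129, 0.171 and 0.190 across genes, and differently numbered ones -0.198 to 0.153. The ranges overlap, so the correlations do not show that the numbers mark pairs. A block was fitted as an alternative, and it changed no call between the compounds. Of the table's symbols 24159 matched RefSeq directly, 1442 through a synonym, and 1328 did not. Member coordinates and overlaps come from GENCODE v29.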

Additional observations from a re-analysis of the deposited data

How the results depend on the processing

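The count of members called was small in every setting and moved by 1 or 2. For JPX-0750 against DMSO it was 0, and it was 2 (WDR74 rose, NME1 fell) without the 3 libraries with the fewest genes, 1 (NOLC1 fell) with voom weights, an alternative chosen after seeing the data, and 0 to 1 with 1 library left out (WDR74, without JPX-0700 replicate 3). For JPX-0700 against DMSO it was 1, and it was 0 without a filter, with equal protein-coding totals and with TMM factors, 2 (WDR74 rose, POLR1B fell) without those 3 libraries, and 0 to 1 with 1 library left out. With equal totals it was also 1, but FBL fell and WDR74 was not called. The adjusted p of WDR74 was then 0.126, against 0.0615 without a filter, 0.0927 with equal protein-coding totals and 0.0802 with TMM factors. JPX-0750 against JPX-0700 gave 0 members and 0 genes in every setting.

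Over all genes tested, JPX-0750 against DMSO gave 489 calls (480 higher, 9 lower), 2559 without the 3 libraries, 945 with voom weights and 254 to 1096 with 1 library left out. JPX-0700 against DMSO gave 710 (649 higher, 61 lower), 2601, 1299 and 390 to 954. The split depended on scaling: with equal totals it was 304 higher and 57 lower for JPX-0750, and 378 higher and 283 lower for JPX-0700. For JPX-0700 it was 427 and 125 with equal protein-coding totals and 510 and 123 with TMM factors. The cause of these shifts was not tested.

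With a replicate block the members called were 0, 1 and 0 for JPX-0750 against DMSO, JPX-0700 against DMSO and JPX-0750 against JPX-0700, and the genes called 473, 694 and 0. Same-numbered treated and DMSO libraries did not deviate together (r = -0.143 to -0.0436), and pairing between the compounds was not shown, so the block rests on a shared number alone. Of 306 alternative values per comparison for the 17 members named by rule, 18, 23 and 23 changed sign for those 3 comparisons, all without a call. The planned count-model alternatives in edgeR and DESeq2 were not run, because values with a decimal comma could not be checked as counts. Voom on the recovered reads was run instead. Depth limits the weakly counted members: 18 reads of POLR1B in all JPX-0700 libraries, for example.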

Other observations

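Members with and without the E-box could be set side by side, as a description without a test. With JPX-0750 the median log2 fold change over DMSO was -0.18 for the 16 members with CACGTG (9 below 0) and -0.46 for the 15 with a window that lacked it (12 below 0). With JPX-0700 the medians were -0.42 (12 below 0) and -0.64 (12 below 0). CAD, called a classical MYC target above, was among the members whose window lacked the motif. The 2 groups are therefore not MYC targets and other genes, and the part of MYC was not tested. The 2 comparisons share the DMSO libraries. The 6 members without a window had medians of -0.35 and -0.20.

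Among the snoRNA rows within members, several were near 0 with DMSO and counted in all treated groups. SNORD56, in NOP56, had 283 reads with JPX-0750, 213 with JPX-0700 and 5 with DMSO, although DMSO libraries were deeper. SNORD82, in NCL, had 158, 163 and 1. Both averaged under 5 normalised counts with DMSO (0.794 and 0.179), so they reached the minimum for testing only through treated libraries. They are examples, and 19 of the 23 snoRNA rows had a read in any library. The snoRNA rows had 33.3, 31.2 and 35.8 normalised counts per 100 of their hosts with JPX-0750, 59.0, 26.5 and 34.2 with JPX-0700, and 0.256, 0.270 and 0.988 with DMSO.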
